A study of Homo sapiens with 6 samples.

Results

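KLHL28, PROB1 and C15orf39 are 3 protein-coding genes whose RNA was lower when auxin was added to Leptomycin B-treated cells. They were chosen by that fall, out of 58051 genes in the count table, of which 16974 were tested and 12663 of those were protein-coding. All 3 passed the filter on low counts, a CPM (the usual depth-scaled count) above 1 in at least 3 of the 6 libraries. Because the fall itself chose them, its size is described here without a test.

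The cells were DLD-1, a human colorectal adenocarcinoma line, of the genotype AID-NeonGreen-TPR. In this line both TPR copies are fused to NeonGreen and to a degron that auxin activates, and TIR1, the ubiquitin ligase subunit that binds the degron, is expressed from the RCC1 locus. The 3 LMB libraries came from cultures given 200 nM Leptomycin B for 3 h. The 3 LMB+auxin libraries had the same exposure with 1 mM auxin for the final 2 h. Leptomycin B was present in every culture and blocks CRM1, an exporter of proteins and of some RNAs. No culture with auxin alone and no untagged line was analysed here, so an effect of the auxin compound cannot be told apart from one of TPR loss, and the edited line is a single model.

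TPR forms part of the nuclear basket at the side of the pore that faces the nucleus. The TREX-2 complex, which acts in mRNA export as does the export receptor NXF1, also docks there. KLHL28 belongs to the BTB-Kelch family. Proteins of this family bind the scaffold CUL3 through the BTB domain and a substrate through the Kelch repeats, so that the substrate is marked with ubiquitin. PROB1 (proline rich basic protein 1) and C15orf39 are named for composition or position and have no well established role.

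Total counts ran from 28261903 to 35992425 per library. All 8 colon epithelial markers examined (EPCAM, CDH1, KRT8, KRT18, KRT19, KRT20, VIL1 and CDX2) were present, the lowest at a mean of 19.0 CPM. Of 6 markers of other cells (PTPRC, PECAM1, CDH5, COL1A1, COL1A2 and DES), none exceeded 0.751 CPM in any library, and their summed level ran from 0.930 to 1.22 CPM in LMB and from 0.844 to 1.26 CPM in LMB+auxin. TPR RNA, which does not report loss of the protein, was at 167 ± 12.1 in LMB and 188 ± 3.89 in LMB+auxin (mean CPM ± SD, n = 3 per group).

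The members differ in the DNA just before their start sites. The 250 bases upstream of each RefSeq start are shown because the 3 RNAs were lower together, and capitals mark the matches to the short motifs searched on both strands. The windows are chr14:44961486-44961735 on the minus strand for KLHL28, chr5:139395105-139395354 on the minus strand for PROB1 and chr15:75201632-75201881 on the plus strand for C15orf39 (RefSeq, GRCh38.p14), each printed 5′ to 3′ along the gene.
KLHL28: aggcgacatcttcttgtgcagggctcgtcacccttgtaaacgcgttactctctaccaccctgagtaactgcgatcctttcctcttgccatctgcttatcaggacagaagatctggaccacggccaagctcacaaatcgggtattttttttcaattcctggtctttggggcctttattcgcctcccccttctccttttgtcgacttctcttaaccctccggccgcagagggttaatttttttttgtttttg
PROB1: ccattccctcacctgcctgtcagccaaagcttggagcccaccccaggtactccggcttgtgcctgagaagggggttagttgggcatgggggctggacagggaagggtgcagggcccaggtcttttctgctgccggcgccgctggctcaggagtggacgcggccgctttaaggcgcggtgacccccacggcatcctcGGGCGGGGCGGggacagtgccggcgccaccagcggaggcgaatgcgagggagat
C15orf39: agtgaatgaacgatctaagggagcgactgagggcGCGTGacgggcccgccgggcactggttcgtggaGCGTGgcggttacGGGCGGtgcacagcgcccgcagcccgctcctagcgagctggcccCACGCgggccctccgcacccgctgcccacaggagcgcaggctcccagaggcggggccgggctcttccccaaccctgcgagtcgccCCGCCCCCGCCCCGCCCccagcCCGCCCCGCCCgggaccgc

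The KLHL28 window had 48.4% G or C and 11 CpG dinucleotides, the PROB1 window 68.4% and 18, and the C15orf39 window 76.8% and 32. Among 35114 promoters in the table, 28.7% had less G and C than KLHL28, 75.6% less than PROB1 and 92.5% less than C15orf39. The GC box GGGCGG was found at 2 places in PROB1, which overlap by 1 base, and at 6 places in C15orf39, some of which also overlap each other. It was not found in KLHL28, and 42.6% of all promoters held it. The letters GCGTG, the core of the xenobiotic response element, were found at 3 places in C15orf39 and in neither of the other windows, against 32.2% of all promoters. TATAAA (10.7% of all promoters), CCAAT (32.0%), CCGGAAG (8.52%), CACGTG (6.35%) and TGACGTCA (1.65%) were found in none of the 3 windows. No motif was found in all 3.

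KLHL28 (ENSG00000179454) lies on the minus strand of chromosome 14, from 44924324 to 45042322 (GRCh38). Its level was 23.3, 28.8 and 21.2 CPM in LMB replicates 1, 2 and 3, and 14.6, 20.1 and 14.8 CPM in LMB+auxin replicates 1, 2 and 3. Replicate 2 was the highest in both groups, and the highest LMB+auxin value was still below the lowest LMB value. The means were 24.4 ± 3.93 in LMB and 16.5 ± 3.13 in LMB+auxin (mean CPM ± SD, n = 3 per group). Within replicate pairs KLHL28 was lower with auxin by 37.2%, 30.2% and 30.4%, so the pairs differed less than the groups' own spread. The fitted log2 fold change, LMB+auxin over LMB, was -0.57. These values rest on 433 to 899 counts per library.

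PROB1 (ENSG00000228672), a gene of 1 exon on the minus strand of chromosome 5 from 139390592 to 139395104 (GRCh38), had the lowest level of the 3. It was at 7.21, 6.38 and 5.56 CPM in LMB replicates 1, 2 and 3, and at 3.95, 5.18 and 3.46 CPM in LMB+auxin replicates 1, 2 and 3. The groups did not overlap, but LMB+auxin replicate 2 came within 0.382 CPM of LMB replicate 3. The means were 6.38 ± 0.823 in LMB and 4.20 ± 0.885 in LMB+auxin (mean CPM ± SD, n = 3 per group). PROB1 was lower by 45.2%, 18.8% and 37.7% in pairs 1, 2 and 3, and its fitted log2 fold change was -0.60. The order of the falls rests on single libraries, since without LMB replicate 1 PROB1 was at -0.51 and KLHL28 at -0.60, and without LMB+auxin replicate 3 they were at -0.47 and -0.49 on the log2 scale. The counts of PROB1 were the smallest of the 3, between 110 and 208 per library.

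C15orf39 (ENSG00000167173) lies on the plus strand of chromosome 15, from 75195643 to 75212169 (GRCh38). It was at 25.6, 23.9 and 26.6 CPM in LMB replicates 1, 2 and 3, and at 19.0, 18.0 and 19.3 CPM in LMB+auxin replicates 1, 2 and 3. Relative to their means these were the tightest groups of the 3 genes, and the gap between them was wider than the range within either. The means were 25.4 ± 1.38 in LMB and 18.8 ± 0.651 in LMB+auxin (mean CPM ± SD, n = 3 per group). The pairs were lower by 25.6%, 24.5% and 27.7%. The fitted log2 fold change was -0.43, from 526 to 958 counts per library. It was smaller than that of KLHL28, but without LMB replicate 2 C15orf39 was at -0.47 and KLHL28 at -0.42.

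**Figure D1:**
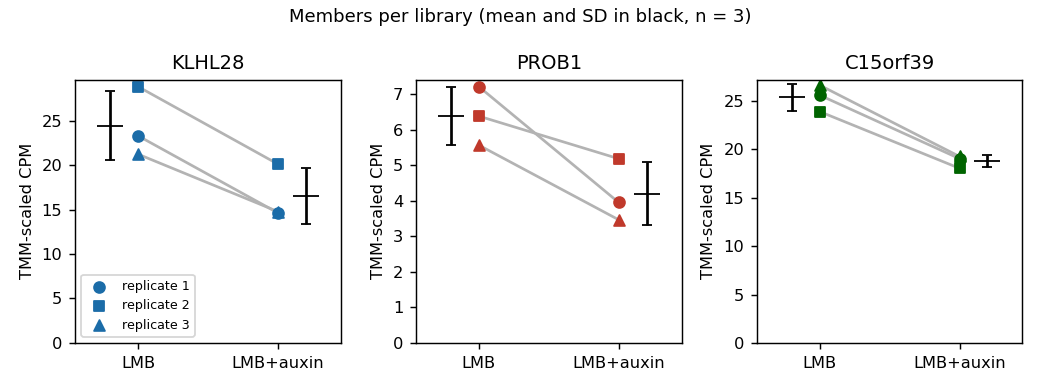
TMM-scaled CPM of KLHL28, PROB1 and C15orf39 in the 3 LMB and 3 LMB+auxin libraries, with grey lines joining libraries of one replicate number and black bars for the mean ± SD (n = 3). Every line falls, and the slopes are nearly parallel for C15orf39 and least alike for PROB1.

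The size of the fall varied between pairs by an SD of 0.09 log2 units for KLHL28, 0.29 for PROB1 and 0.03 for C15orf39 (n = 3 pairs each), around pair means of -0.57, -0.62 and -0.43. All LMB+auxin libraries lay below all LMB libraries for 3 of 3 members, as they did for 6.63% of the tested genes. In the edgeR quasi-likelihood test, with a call at an adjusted p (Benjamini-Hochberg) under 0.05 and a fold of at least 1.3, 0 of the 16974 genes (0%) were lower and 1 (0.00589%) was higher with auxin, LINC02029, a gene named after its values were seen. The unadjusted p was under 0.05 for 741 genes, and DESeq2 called 3 lower, which were C15orf39, ZNF574 and ZNF12 (named after their values were seen). With replicate number as a block, edgeR called 150 genes lower (0.884%) and 51 higher (0.300%), and all 3 members were among the 150. DESeq2 with the block held 2 of the 3 among its 18 lower genes, and edgeR with no filter 2 among its 14. The fall in these libraries chose the members, so nothing is read from these calls. Of the 12663 coding genes, 0.111% had a larger fitted fall than PROB1 in the block fit, 0.205% than KLHL28 and 0.766% than C15orf39.

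**Figure D2:**
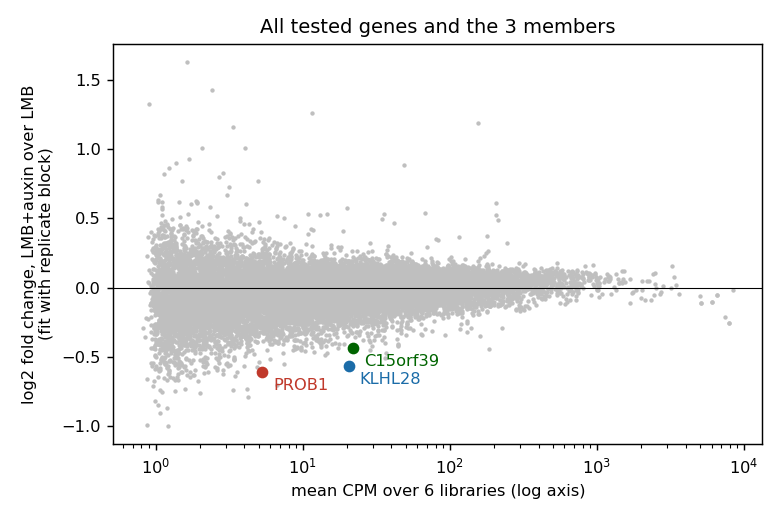
Log2 fold change from the fit with the replicate block against mean CPM over 6 libraries (log axis) for 16974 tested genes in grey, with the 3 members coloured. The members, chosen by this fall, sit at the lower edge of the cloud at their level, at -0.57 (KLHL28), -0.61 (PROB1) and -0.43 (C15orf39).

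Targets of the aryl hydrocarbon receptor, which auxin compounds can activate, were measured in the same libraries, and their part in the members' fall was not tested. CYP1A1, a detoxifying oxidase, was at 96.8 ± 28.5 in LMB and 216 ± 20.0 in LMB+auxin (mean CPM ± SD, n = 3 per group). The log2 fold changes of the 5 markers were 1.16 for CYP1A1, 0.61 for TIPARP, 0.35 for CYP1B1, 0.16 for AHRR and 0.08 for NQO1. Their summed level ran from 590 to 672 CPM in LMB and from 807 to 963 CPM in LMB+auxin. None was called by edgeR without the block (0 of 5, with 3 at an unadjusted p under 0.05). Over all 16974 tested genes, that fit called 1 higher and had 741 at that p. By edgeR with the block, TIPARP was called (adjusted p 4.4e-19), beside 0.300% of all tested genes called higher. CYP1B1 passed the adjusted p of that fit (2.6e-07) but not the fold. CYP1A1 (0.181), AHRR (0.0953) and NQO1 (0.279) did not pass that adjusted p. NQO1 was lower with auxin in pair 2, and the groups of NQO1 and of AHRR overlapped.

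Levels were compared between genes per kilobase of exon. In LMB, C15orf39 was at 4.37 ± 0.237, KLHL28 at 3.03 ± 0.487 and PROB1 at 1.41 ± 0.182 CPM per kilobase (SD, n = 3 each). In LMB+auxin the order was the same, at 3.24 ± 0.112, 2.04 ± 0.387 and 0.930 ± 0.196 CPM per kilobase. The ranges of neighbours in this order did not overlap in either group. All 3 lay in the lower part of the tested coding genes, of which 43.5% had a lower LMB level than C15orf39, 33.8% than KLHL28 and 18.9% than PROB1.

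Differences between the replicate numbers were not used to choose the members and could be tested. KLHL28 differed between numbers, with means over both groups of 19.0, 24.5 and 18.0 CPM for replicates 1, 2 and 3 (edgeR quasi-likelihood test, adjusted p 7.4e-06). PROB1, at 5.58, 5.78 and 4.51 CPM, did not pass (adjusted p 0.0622). It passed narrowly in edgeR with DESeq2 size factors (0.0480) or with scaling by library size alone (0.0474). It did not pass in edgeR with no filter on low counts (0.105) or by DESeq2 (0.467). C15orf39 stood at 22.3, 21.0 and 23.0 CPM and did not pass (adjusted p 0.415). Such a difference was common, with 5726 of 16974 genes (33.7%) past the threshold.

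Profiles over the 6 libraries were compared by the root mean square difference (RMS) of log2 CPM, each gene centred on its own mean. By this measure, the 5 coding genes nearest to KLHL28 were CLDN4 (RMS 0.083), HRCT1 (0.10), YPEL2 (0.11), TMEM86A (0.11) and SLC22A18 (0.11). CLDN4, a claudin of epithelial tight junctions, was at 213 ± 26.5 in LMB and 157 ± 27.0 in LMB+auxin (mean CPM ± SD, n = 3 per group), with replicate 2 highest in both groups. Nearest to PROB1 were ABO (0.11), which encodes the blood group glycosyltransferase, PKDCC (0.12), OR10AD1 (0.13), ATOSB (0.13) and CARMIL3 (0.14). ABO was at 4.91 ± 0.901 in LMB and 3.60 ± 0.555 in LMB+auxin (mean CPM ± SD, n = 3 per group).

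Among the genes nearest to C15orf39 were ZXDB (0.043), a zinc finger gene, FEM1C (0.057), a substrate adaptor of a CUL2 ubiquitin ligase, ZNF574 (0.068) and ZCCHC3 (0.071). ZXDB was at 14.9 ± 0.379 in LMB and 11.3 ± 0.0114 in LMB+auxin (mean CPM ± SD, n = 3 per group). Each gene named here was lower in 3 of 3 pairs, which follows from matching a falling profile. KLHL28 and PROB1 were nearer to each other (RMS 0.15) than either was to C15orf39 (0.26 and 0.25). By nearness to KLHL28, PROB1 was at rank 34 among coding genes and C15orf39 at rank 797. By nearness to PROB1, KLHL28 was at rank 12 and C15orf39 at rank 347. The measure takes in the fall that chose the members, so no pairing among them is read from it.

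**Figure D3:**
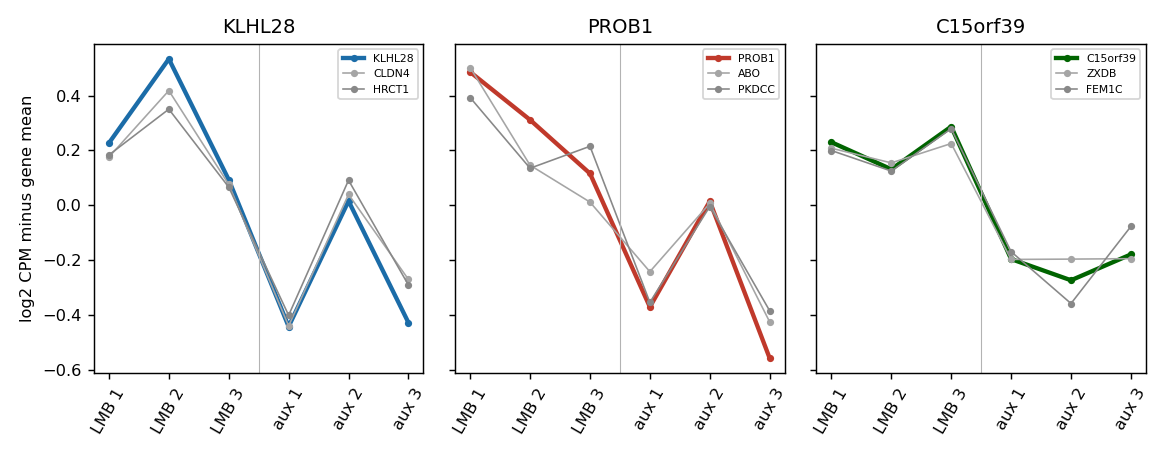
Log2 CPM minus the gene's mean in each of the 6 libraries (aux, LMB+auxin) for each member in colour and its 2 nearest coding genes in grey, with lines joining the points of a gene only to guide the eye. KLHL28 and its neighbours peak in replicate 2 of both groups, while C15orf39 and its neighbours vary less within a group.

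The genes around the members were measured to see whether the fall extended along the chromosome. Within 100 kb of a member's span in GENCODE lay 16 other tested genes. Their log2 fold changes ran from -0.43 to 0.20, with a median of 0.01, beside 0.00 over all tested genes. The edgeR test called 0 of 16 (1 at an unadjusted p under 0.05), beside 0 lower and 1 higher of all 16974 (741 at that p). With the block, edgeR called 0 (2 at that p), beside 0.884% lower and 0.300% higher of all tested genes (3376 at that p). DESeq2 called 0, beside 3 lower and 8 higher of all. With so few genes called anywhere, the 0 of 16 says little about the neighbours. The median over all genes to 4 decimals was -0.0027.

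TOGARAM1, which encodes a protein of ciliary microtubules, starts 705 bases from the RefSeq start of KLHL28 and runs the opposite way. It was at 9.95, 9.04 and 8.96 CPM in LMB replicates 1, 2 and 3, and at 11.3, 9.33 and 9.54 CPM in LMB+auxin replicates 1, 2 and 3. The groups overlapped, and the log2 fold change was 0.11 ± 0.11 (standard error; edgeR adjusted p 0.954). The log2 fold change was 0.08 for FKBP3, 0.02 for C14orf28, 0.12 for PRPF39 and 0.00 for FANCM, none of them called. For FKBP3, C14orf28 and FANCM it was smaller than its standard error (0.095, 0.19 and 0.090), so these show no direction. FKBP3 shares 28.9% and PRPF39 13.3% of exonic bases with other annotated genes. The annotated KLHL28 gene extends over the start of TOGARAM1, and 3.01% of the exonic bases of KLHL28 are shared with other genes.

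SPATA24, a gene with a role in sperm development, lies upstream of PROB1 on the same strand and ends 1459 bases before PROB1 starts. It was at 3.40, 3.17 and 3.20 CPM in LMB replicates 1, 2 and 3, and at 2.74, 2.95 and 2.52 CPM in LMB+auxin replicates 1, 2 and 3. The groups did not overlap, with LMB+auxin below LMB, as for 6.63% of all tested genes. The log2 fold change of -0.25 ± 0.14 (standard error) did not pass (edgeR adjusted p 0.954, and 0.296 with the block). The log2 fold change was 0.20 for DNAJC18, -0.07 for SIL1, -0.05 for STING1, 0.00 for PAIP2, -0.02 for ENSG00000272742 and 0.04 for each of 2 MATR3 entries, ENSG00000015479 and ENSG00000280987. The MATR3 entries share 42.6% and 92.4% of their exonic bases with other annotated genes, ENSG00000272742 shares 100% and PAIP2 21.0%, so their values are uncertain. Both MATR3 entries count among the neighbours, at similar means of 647 and 674 CPM in LMB. No exonic base of PROB1 is shared with another annotated gene.

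The antisense long noncoding RNA ENSG00000261779 lies wholly within exonic bases of C15orf39. It was at 2.01, 1.92 and 2.31 CPM in LMB replicates 1, 2 and 3, and at 1.72, 1.34 and 1.57 CPM in LMB+auxin replicates 1, 2 and 3. Its log2 fold change of -0.43 ± 0.18 (standard error) was the same as that of C15orf39 to 2 decimals and did not pass (edgeR adjusted p 0.954, and 0.136 with the block). Its groups did not overlap, as for 6.63% of all tested genes. The libraries were stranded, but the strand setting of the counting was not given, so reads in the shared bases cannot be assigned to 1 of these genes. Those bases are 3.55% of the exonic bases of C15orf39, and the antisense gene had 39 to 83 counts per library. PPCDC (-0.05) and the 7SL-related gene Metazoa_SRP (0.18), farther away, were not called.

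**Figure D4:**
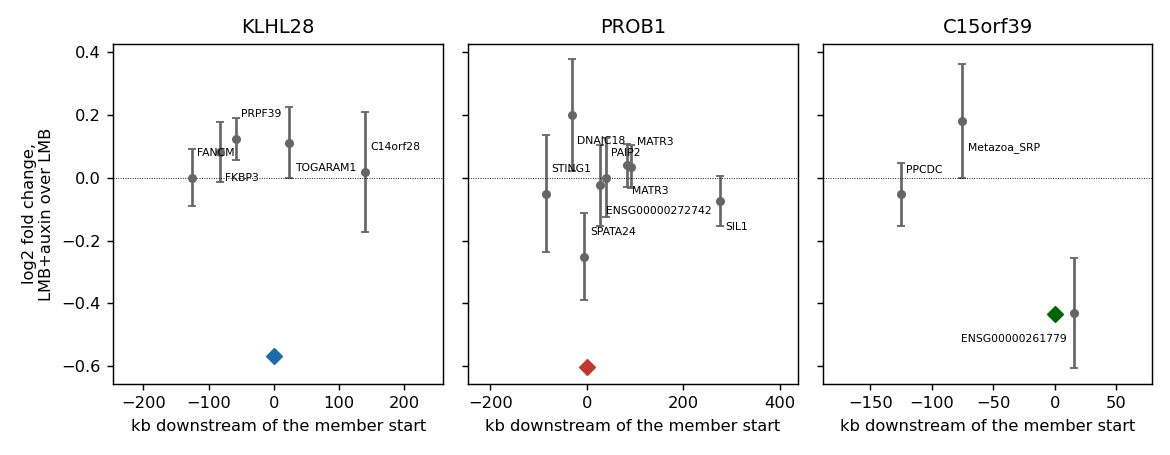
Log2 fold change ± standard error of the tested genes within 100 kb of each member's GENCODE span (grey), with the member as the coloured diamond. The horizontal axis is the distance of the gene's centre from the member's GENCODE start in kb, positive downstream. For KLHL28 and C15orf39 this start lies upstream of the RefSeq start, so TOGARAM1 falls downstream of KLHL28 here. Every neighbour lies well above its member, which was chosen by its fall, except ENSG00000261779, which overlaps C15orf39 and lies at the same height.

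Relatives of KLHL28 were examined from a list of 50 other BTB-Kelch genes, of which 35 were tested. Their median log2 fold change was -0.07, with 22 negative and 13 positive, and the range ran from -0.36 for KLHL6 to 0.13 for KLHL2. The edgeR test called 0 of 35 without the block (3 at an unadjusted p under 0.05), 0 with it (13 at that p, beside 3376 of all 16974 tested genes), and DESeq2 called 0. With the block 5 genes passed the adjusted p but not the fold, all lower, and they were named after their values were seen. They were KBTBD2 (-0.29, adjusted p 2.4e-04), KLHL21 (-0.27, 0.00318), ENC1 (-0.19, 0.00928), KLHL24 (-0.24, 0.0190) and KBTBD7 (-0.24, 0.0462), on the log2 scale of the block fit. Over all tested genes 740 passed that adjusted p, 552 of them lower.

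KBTBD2, which directs CUL3 to a regulatory subunit of PI3 kinase, was at 55.2 ± 3.81 in LMB and 45.3 ± 1.31 in LMB+auxin (mean CPM ± SD, n = 3 per group). KLHL21, an adaptor that acts in cell division, was at 33.1 ± 5.82 and 27.5 ± 4.92 CPM (SD, n = 3 each), and its groups overlapped. KEAP1, the family member that restrains NRF2, stood at -0.07 on the log2 scale (edgeR adjusted p 0.954). KLHL28 thus stood outside the range of the other tested members of its family, by the same contrast that chose it.

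The CUL3 machinery itself was a list of 22 genes, all tested, including the RING subunit RBX1, the NEDD8 pathway, CAND1 and the COP9 signalosome. The median log2 fold change was 0.03, with 15 positive and 7 negative. The edgeR test called 0 of 22 (0 at an unadjusted p under 0.05), 0 with the block (4 at that p, beside 3376 of all 16974 tested genes), and DESeq2 called 0. CUL3 was at 131 ± 4.99 in LMB and 140 ± 5.16 in LMB+auxin (mean CPM ± SD, n = 3 per group), and did not pass (0.09 ± 0.06 on the log2 scale, standard error; edgeR adjusted p 0.954). RBX1 was at 49.5 ± 0.511 and 50.1 ± 2.97 CPM (SD, n = 3 each), with a log2 fold change of 0.02.

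In protein length, proline share and coding GC content, PROB1 and C15orf39 were nearer to each other than either was to KLHL28, while in lysine and arginine C15orf39 was nearer to KLHL28. The longest coding sequence of PROB1 encodes 1015 residues in 1 exon, that of C15orf39 encodes 1047 residues in a transcript of 3 exons, and that of KLHL28 encodes 585 residues in a transcript of 5 exons (GENCODE 44). Proline made up 18.7% of the PROB1 protein, 16.9% of C15orf39 and 3.93% of KLHL28, and 99.6%, 99.3% and 19.6% of tested coding genes had a lower share. Lysine and arginine together made up 11.0% of PROB1, 8.88% of C15orf39 and 8.55% of KLHL28. The coding sequence held 69.9% G or C in PROB1, 63.6% in C15orf39 and 41.9% in KLHL28.

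Other genes of like structure were described with the members left out, in classes set after the members' structure was seen. The median log2 fold change was -0.14 over 255 tested coding genes with 1 exon, -0.07 over 1261 with 2 or 3, 0.00 over 4937 with 4 to 9 and 0.03 over 6036 with 10 or more. Of the single-exon genes 223 were negative and 32 positive. With the block, edgeR called 7 of them lower (2.75%), 25 of those with 2 or 3 exons (1.98%), 28 of those with 4 to 9 (0.567%) and 16 of those with 10 or more (0.265%), beside 0.640% of all 12663 tested coding genes. Over 158 genes with at least 15% proline the median was -0.09, with 2 called lower with the block (1.27%). Over the 12331 coding genes with under 15% proline it was 0.01 (0.600% called lower). Tested coding genes without a translated transcript fall in no class of exons or proline, but are among the 12663.

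**Figure D5:**
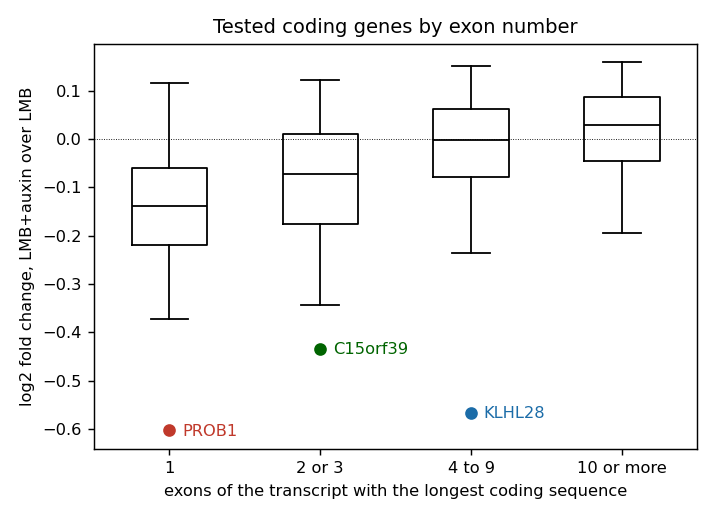
Log2 fold change of tested coding genes by exon number, members left out of the boxes (line, median; box, quartiles; whiskers, 5th to 95th percentile), with the members as coloured points. The medians rise from -0.14 at 1 exon to 0.03 at 10 or more. Each member lies below the lower whisker of its class, by the same contrast that chose it, so nothing is read from its place.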

How the data were processed

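Total RNA of 6 cultures, 3 per group by the recorded treatment, was sequenced after removal of ribosomal RNA. The authors aligned reads to GRCh38 with STAR 2.6.1c and counted them with featureCounts 1.5.2, per the labels. The deposited files hold unnormalised gene counts on Ensembl models. The settings for strand and for reads with several matches are not given in the sources used here.

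Symbols were found for 56948 of 58051 identifiers in GENCODE 44, whose GRCh38 coordinates are printed. Genes with CPM above 1 in at least 3 libraries were kept and tested across all genes with edgeR 4.0.16 in R 4.3.3 after TMM scaling. DESeq2 1.42.0 was an alternative, as were other scalings, no filter and libraries left out. The scripts were tested on simulated data. The replicate numbers, given in the labels, were taken to pair the samples, which the study does not state. Deviations from group means correlated at 0.53, 0.69 and 0.27 in pairs 1, 2 and 3, and correlations across numbers are not given here. Fits with and without replicate number as a block were made. Standard errors are the log2 fold change over the root of F.

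Members and lists were chosen with earlier results of these data known. Named genes were the members, TPR, tested genes within 100 kb, called genes of 2 lists with CUL3, RBX1 and KEAP1, the 5 auxin markers and the 5 nearest profiles per member, of which 1 is not reported here. Composition was translated from GENCODE 44 transcripts. The study's methods describe independent biological replicates.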

Additional observations from a re-analysis of the deposited data

How the results depend on the processing

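The log2 fold change of each member stayed negative in all 15 alternatives tried for it. The members were chosen by this fall and their groups did not overlap, so nothing is read from the constant sign. Leaving out 1 library moved KLHL28 between -0.73 (without LMB+auxin replicate 2) and -0.42 (without LMB replicate 2), PROB1 between -0.78 and -0.47, and C15orf39 between -0.47 and -0.40. Under no alternative were BTB-Kelch, CUL3 machinery or neighbouring genes called. Few of all genes were called under any alternative, at most 150 lower and 51 higher, so little is read from this.

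The count of genes lower with auxin, 0 by edgeR, was 150 with the replicate block, 14 with no filter on low counts, 3 by DESeq2 and 18 by DESeq2 with the block, and that of genes higher, 1, was 51, 25, 8 and 13. Under library size alone edgeR called 0 higher, with 737 genes at an unadjusted p under 0.05. With 1 library left out, 0 were lower and 0 to 5 higher. The 5, named after their values were seen, were LINC02029, TIPARP, STMND1, LINC00880 and ENSG00000231403, without LMB+auxin replicate 2. With the block and a replicate pair left out, 91, 119 and 100 were lower and 42, 39 and 34 higher (without pair 1, 2 and 3). Genes that differed between replicate numbers were 2559 by DESeq2 in place of 5726. The causes were not tested. PROB1, at 110 to 208 counts per library, is where depth limits the values most.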
